A study of Mus musculus with 69 samples.

Results

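A set of 6 genes that PPAR alpha and fasting are known to induce were followed in the lungs of mice given titanium dioxide nanoparticles: Acot1, Pdk4, Angptl4, Cpt1a, Ucp3 and Plin2. They were chosen by name, and a probe belonged to a gene when its transcript identifier mapped to the symbol of that gene. Of 41174 probes on the array, 7 belonged to the 6 genes, which stand among 17628 genes tested. Cpt1a had 2 probes and the others 1 each.

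Female C57BL/6 mice arrived at 5 to 7 weeks of age and were kept for 1 to 3 weeks before use. They received a single dose into the trachea of NRCWE-001, the unmodified particle, or NRCWE-002, labelled as modified. The paper lists NRCWE-002 as positively charged. A mouse received 18, 54 or 162 µg, and its lungs were collected 1 or 28 days afterwards. Vehicle mice received the liquid without particles, which the labels name as water and the study describes as water with 2% serum. Each of the 12 particle groups held 5 mice, as did the vehicle group of day 1, while the vehicle group of day 28 held 4, which gave 69 mice and 69 arrays. RNA came from a piece of whole lung, so fewer cells of a type and less RNA per cell cannot be told apart. Mouse RNA was labelled red (Cy5) and a common mouse reference RNA green (Cy3) on every array, with no dye swap. All levels below are log2 ratios of lung to reference, the median over the probes of a gene, and they compare mice for 1 gene but not 1 gene with another.

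PPAR alpha is a nuclear receptor that fatty acids activate and that pairs with an RXR partner on DNA. During fasting, when fatty acids reach tissues in quantity, it raises genes that take up, store and burn fat. Glucocorticoids, which also rise in fasting and stress, induce several of the same genes, among them Pdk4 and Angptl4. The mice here were not described as fasted.

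In these lungs 1 of the 6 genes passed a test against vehicle, and it was lower. Acot1, a cytosolic thioesterase that splits fatty acyl-CoA into free fatty acid and CoA, fell 28 days after 18 µg of NRCWE-001. Over the 72 contrasts of a gene at 1 dose with its vehicle, this was the only call by limma after Benjamini-Hochberg adjustment. The contrasts of a day share the vehicle arrays, and 34 had a higher and 38 a lower mean than vehicle. On day 1 the share of all genes called was 0.579% at 162 µg of NRCWE-001, 0.0624% and 0.596% at 54 and 162 µg of NRCWE-002, and 0% at the other doses. On day 28 it was 0.193% and 0.0454% at 18 and 162 µg of NRCWE-001, 0.00567% at 162 µg of NRCWE-002, and 0% otherwise. An unadjusted p below 0.05 was reached in 16 of the 72, while 5.98% of all genes reached it over the same 12 comparisons.

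**Figure D1:**
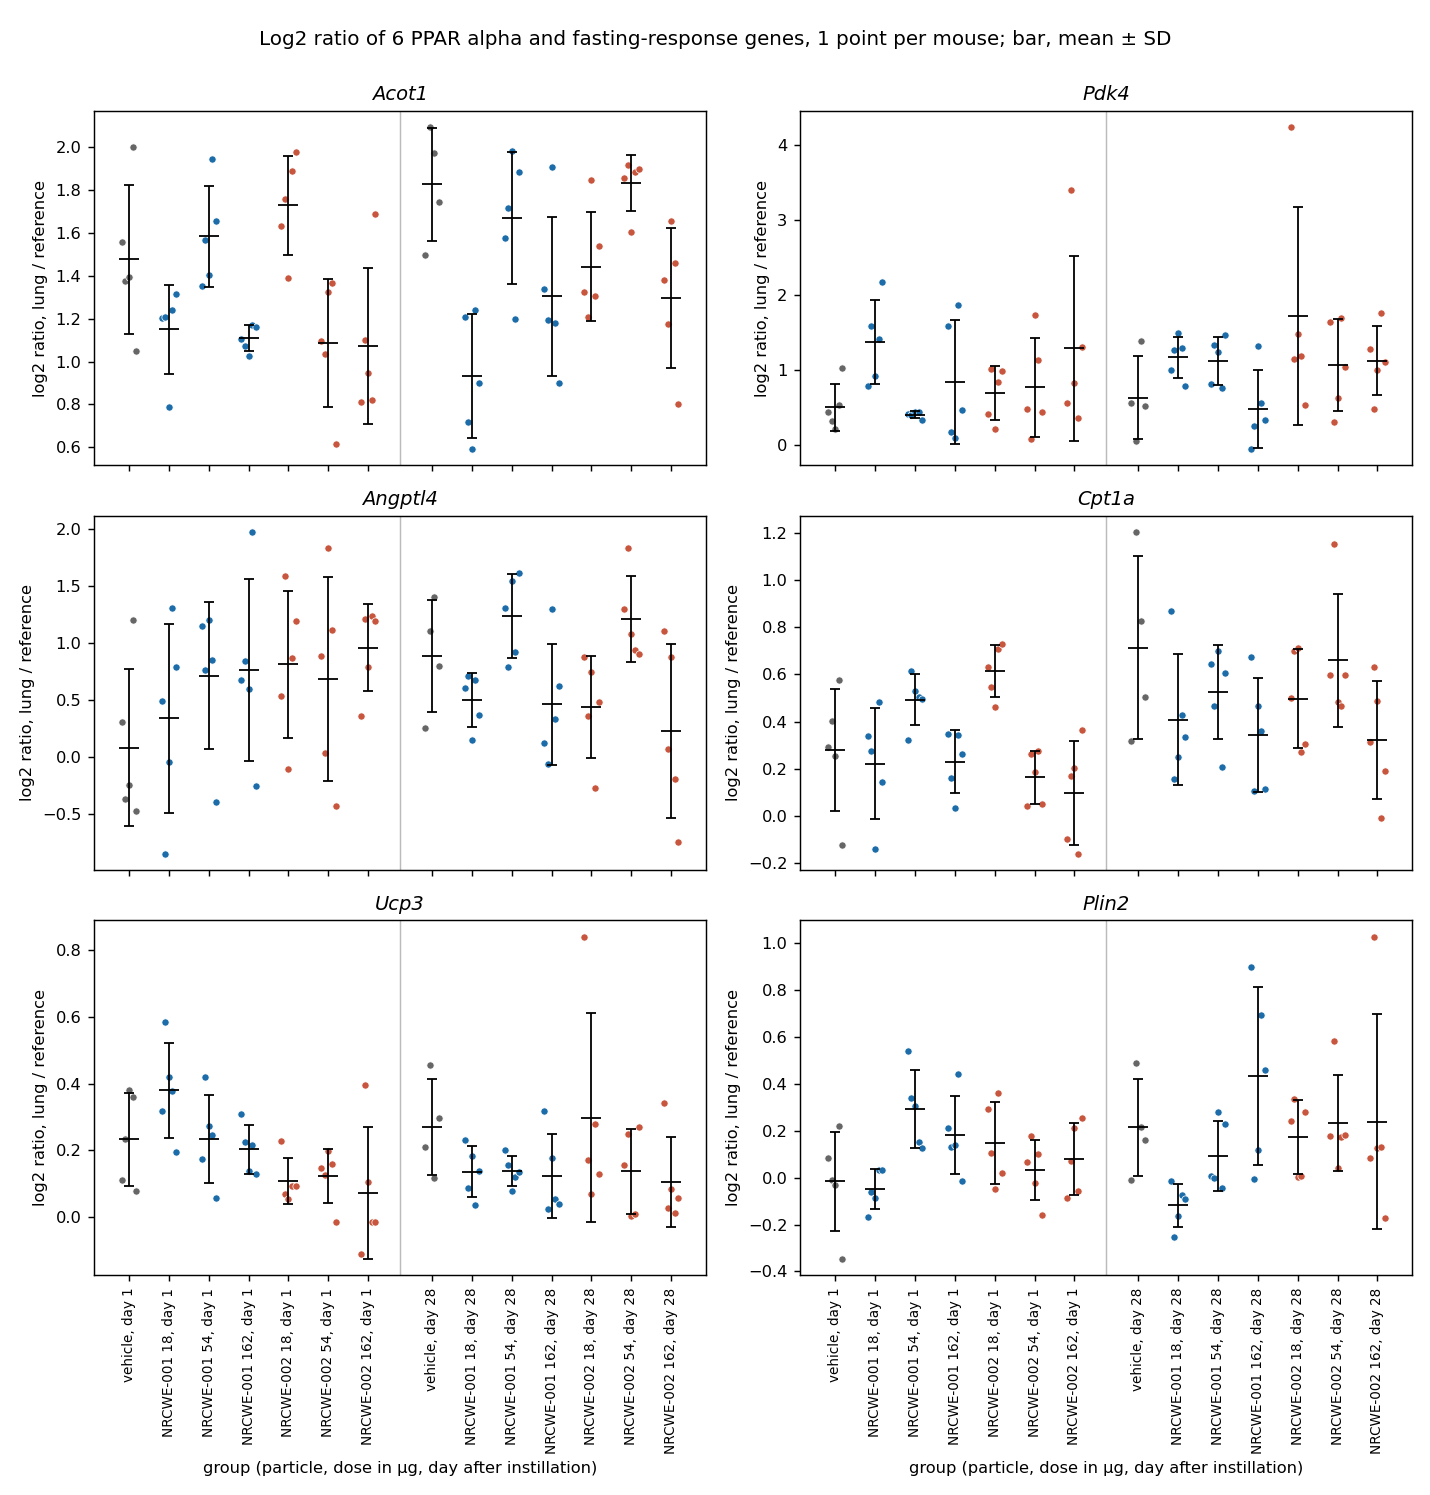
Log2 ratio of lung RNA to reference RNA (vertical axis) of each of the 6 genes in each of 69 mice, by group (horizontal axis: vehicle and 3 doses of each particle, on day 1 and day 28). Points are mice and bars are the group mean with its SD. The 5 mice at 18 µg of NRCWE-001 on day 28 lie below all 4 vehicle mice for Acot1 and for Plin2, and 1 mouse at 18 µg of NRCWE-002 on day 28 reaches 4.23 for Pdk4.

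Signal was sufficient for 5 of the 6 genes. Acot1, Pdk4, Angptl4, Cpt1a and Plin2 were well above background in lung RNA on all 69 arrays. Ucp3, a mitochondrial carrier best known from skeletal muscle, was above background on 30 of 69 arrays in lung RNA and on 7 in the reference, so its ratios are compressed. All 12 lung epithelial and endothelial markers tested were above background on all arrays. Markers of skeletal muscle or brown fat stood more than 3 median absolute deviations above the median on 7 arrays, none of them in a vehicle group or in the group in which Acot1 was called. Cardiac muscle markers were not part of this rule, and where these 7 arrays are named below, muscle means skeletal muscle. Myh6, of the cardiac list, reached 4.48 on the 7 arrays and 4.78 on the other 62. The arrays lay on 18 slides and had been scanned on 12 days.

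Acot1 had log2 ratios of 1.21, 0.72, 0.59, 1.24 and 0.90 in the 5 mice at 18 µg of NRCWE-001 on day 28. The 4 vehicle mice of that day had 1.50, 2.10, 1.98 and 1.75. Every exposed mouse was thus below every vehicle mouse, and the group means were 0.93 ± 0.29 (SD, n = 5) and 1.83 ± 0.26 (SD, n = 4). The difference was −0.90 on the log2 scale, with an SE of 0.18 and a 95% confidence interval of −1.26 to −0.53, which is 1.86-fold lower (limma, adjusted p = 0.0120). In this comparison 0.0737% of all genes were called lower and 1.73% had all exposed arrays below all vehicle arrays. Plin2 was the other of the 6 genes without overlap, and over the 72 contrasts these 2 were the only ones without overlap, while over all genes 1.07% of contrasts had the exposed arrays lower without overlap and 1.26% higher.

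Higher doses of NRCWE-001 on day 28 gave Acot1 values nearer to vehicle. At 54 µg the mice had 1.58, 1.72, 1.98, 1.20 and 1.89, and the difference from vehicle was −0.16. At 162 µg they had 1.34, 1.19, 1.91, 1.18 and 0.90, and the difference was −0.52 (adjusted p = 0.310). Both groups overlapped with vehicle, so the lowest dose stood farthest from it. The F-test over the 3 doses was passed by Acot1 on day 28 for NRCWE-001 (limma, adjusted p = 0.0109), a test that 0.477% of all genes passed.

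The call rested on few mice. Without the vehicle mouse at 2.10 the difference was −0.81 (adjusted p = 0.0706), and without the exposed mouse at 0.59 it was −0.81 (adjusted p = 0.0592). On the 2 slides that held both a vehicle array and an array of this dose, the exposed mouse was lower by 0.89 and 1.26. Median centring of the arrays in place of loess gave −0.76 (adjusted p = 0.412), and a fit of the day 28 arrays alone gave −0.90 (adjusted p = 0.0778).

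Acot1 was not called at any dose of NRCWE-002 on day 28. At 18 µg the 5 mice had 1.32, 1.21, 1.85, 1.31 and 1.54, a difference of −0.38 from vehicle that did not pass. At 54 µg, with 1.86, 1.92, 1.60, 1.89 and 1.90, the mean equalled that of vehicle to 2 decimals. The largest difference was at 162 µg, where the mean was 1.30 ± 0.33 (SD, n = 5). It lay −0.53 from vehicle, with overlap, and did not pass. Set directly against each other at 18 µg, NRCWE-002 was above NRCWE-001 by 0.51 (95% confidence interval 0.17 to 0.86), which did not pass after adjustment (limma, adjusted p = 0.296). At 162 µg on day 28 the particles differed by −0.01, with an interval of −0.35 to 0.34.

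On day 1 the Acot1 differences from vehicle had both signs and none was called. The vehicle mice had 1.56, 1.38, 1.40, 2.00 and 1.05. For NRCWE-002 the mice at 18 µg had 1.64, 1.76, 1.39, 1.89 and 1.98. Those at 54 µg had 1.09, 1.04, 1.32, 1.37 and 0.62, and those at 162 µg had 0.81, 1.10, 0.95, 0.82 and 1.69. The lowest dose lay 0.25 above vehicle, the upper doses 0.39 and 0.40 below it, and all 3 groups overlapped with vehicle. On the 2 slides that held both, the exposed minus the vehicle value was −0.36 and 0.93 at 18 µg, so the slides disagreed there. It was −0.91 and −0.43 at 54 µg, and −1.19 and −0.10 at 162 µg. The F-test had an adjusted p of 0.0552 in limma, in a test that 0.823% of all genes passed. It was passed when slide was a fixed block (adjusted p = 0.0323) or a random block (adjusted p = 0.00881), while the 0.823% belongs to the fit without a block. For NRCWE-001 on day 1, where 0.698% of all genes passed the F-test, the differences of Acot1 were −0.33, 0.11 and −0.37 from the lowest to the highest dose, and none passed.

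Acot1 sits in a cluster with close paralogs, of which Acot2 codes for the mitochondrial enzyme. Over 69 arrays the Pearson correlation of Acot1 was 0.43 with Acot2, 0.17 with Acot3 and Acot4 each and −0.19 with Acot5. Acot2 was above background on all 69 arrays, Acot4 on 45, Acot5 on 10 and Acot3 on 4. The values of Acot3 and Acot5 thus lie near the limit of detection, and their correlations say little about these paralogs. At 18 µg of NRCWE-001 on day 28 Acot2 differed from vehicle by −0.25 with an SE of 0.11, which did not pass (adjusted p = 0.528). Whether the Acot1 probe also binds paralog RNA was not tested.

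Cpt1a is the outer-membrane carnitine palmitoyltransferase that sets how fast long-chain fatty acids enter mitochondria. It passed no test against vehicle, but it followed Acot1 across the mice. On day 28 its vehicle mice had 0.32, 1.20, 0.83 and 0.50, the highest mean of all 14 groups at 0.71 ± 0.39 (SD, n = 4). All 6 particle groups of that day had lower means, by 0.05 to 0.39 on the log2 scale, and none was called. These differences rested in part on the vehicle mouse at 1.20, without which the vehicle mean was 0.55, the group at 54 µg of NRCWE-002 lay above it by 0.11 and the other 5 below it by 0.02 to 0.23. On the 2 slides that held both, the mouse at 18 µg of NRCWE-002 was above the vehicle mouse by 0.21 and 0.18. At 162 µg of NRCWE-002 the mice had 0.32, 0.63, 0.49, −0.01 and 0.19, a difference of −0.39 with an interval of −0.69 to −0.09 (limma, adjusted p = 0.626), and −0.23 without that vehicle mouse.

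On day 1 the Cpt1a values of vehicle mice were 0.29, 0.40, 0.26, 0.58 and −0.12. Those of mice at 18 µg of NRCWE-002 were 0.63, 0.55, 0.46, 0.71 and 0.73, which overlapped with vehicle through the vehicle mouse at 0.58. The difference was 0.33 (95% confidence interval 0.05 to 0.62, limma adjusted p = 0.999). Mice at 54 µg had 0.04, 0.26, 0.19, 0.27 and 0.05, and mice at 162 µg had −0.10, 0.17, 0.20, −0.16 and 0.37. As for Acot1, the group mean of the lowest dose was above vehicle and those of the upper doses below it. On the 2 slides that held both, the exposed minus the vehicle value of Cpt1a was 0.06 and 0.85 at 18 µg. It was −0.53 and 0.17 at 54 µg, and −0.67 and 0.33 at 162 µg, so the slides disagreed at the upper doses. The F-test gave an adjusted p of 0.137, and of 0.0216 with slide as a fixed block and 0.0109 with slide as a random block. The 2 Cpt1a probes correlated at 0.587 over the arrays, and at 162 µg on day 1 they gave −0.31 and −0.06.

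The upstream sequences of the closest pair are shown because both were searched for the letters a PPAR and RXR pair reads, AGGTCA repeats 1 base apart, and for CCAAT, a common promoter motif. Sequences are the 250 bases before the RefSeq start on GRCm38.p6, 5′ to 3′ on the strand of the gene, with matches to AGGTCA or CCAAT on either strand in capitals. The Acot1 window is chr12:84009252-84009501 and the Cpt1a window chr19:3323051-3323300, both on the plus strand.
Acot1: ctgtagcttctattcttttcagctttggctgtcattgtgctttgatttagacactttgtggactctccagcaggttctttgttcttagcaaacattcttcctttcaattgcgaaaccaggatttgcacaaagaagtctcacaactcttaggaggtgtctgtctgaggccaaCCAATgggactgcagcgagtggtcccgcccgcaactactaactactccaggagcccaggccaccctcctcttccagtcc
Cpt1a: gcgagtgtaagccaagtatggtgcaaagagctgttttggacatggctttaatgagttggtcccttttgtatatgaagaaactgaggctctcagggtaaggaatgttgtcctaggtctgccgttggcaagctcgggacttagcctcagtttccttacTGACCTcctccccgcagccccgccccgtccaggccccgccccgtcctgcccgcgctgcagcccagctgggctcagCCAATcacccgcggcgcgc

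The full repeat AGGTCANAGGTCA was in none of the 5 windows of these genes and in 0.0335% of all 32851 promoter windows. The single AGGTCA, on either strand, was in 14% of all windows, in those of Cpt1a, Plin2 and Ucp3 among the genes here, and not in those of Acot1 and Pdk4. CCAAT was in 33.8% of all windows and in those of Acot1, Cpt1a, Plin2 and Pdk4. The repeat motif contains the single one, and a match is a run of letters, not a measured binding site. Angptl4 had no entry.

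Pdk4 codes for the kinase that shuts pyruvate dehydrogenase and so spares glucose. It varied most among mice of a group, with a within-group SD of 0.69 against 0.28 for Acot1. It passed no test. At 18 µg of NRCWE-002 on day 28 the mice had 4.23, 1.15, 1.49, 1.19 and 0.54 against 0.56, 0.06, 1.39 and 0.52 in vehicle. The difference of 1.09 (95% confidence interval 0.18 to 1.99, limma adjusted p = 0.792) was 0.46 without the mouse at 4.23. At 18 µg of NRCWE-001 on day 1 the mice had 0.79, 1.59, 0.92, 1.41 and 2.17 against 0.44, 0.32, 0.22, 0.54 and 1.02 in vehicle, with overlap through the vehicle mouse at 1.02. That difference was 0.87 with an SE of 0.43 (limma, adjusted p = 1.00).

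The highest Pdk4 values fell on arrays high in muscle or brown fat markers. On those 7 arrays Pdk4 ran from 1.04 to 4.23 with a median of 1.87. On the other 62 it ran from −0.05 to 1.75 with a median of 0.77. Acta1, the actin of skeletal muscle, ran from 2.04 to 6.42 on the 7 arrays and from −2.89 to −0.69 on the rest, with no overlap. It belongs to the skeletal muscle list by which arrays were set apart, so this separation is no independent evidence. Ucp1, which defines brown fat, was above background on 1 of the 7 and on 8 of the 62, and Elovl3, also of the brown adipocyte list, on 1 and 7. Both mice just named at the top of their Pdk4 groups, at 4.23 and 2.17, were among the 7. The part of muscle RNA in the Pdk4 differences was not tested.

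**Figure D2:**
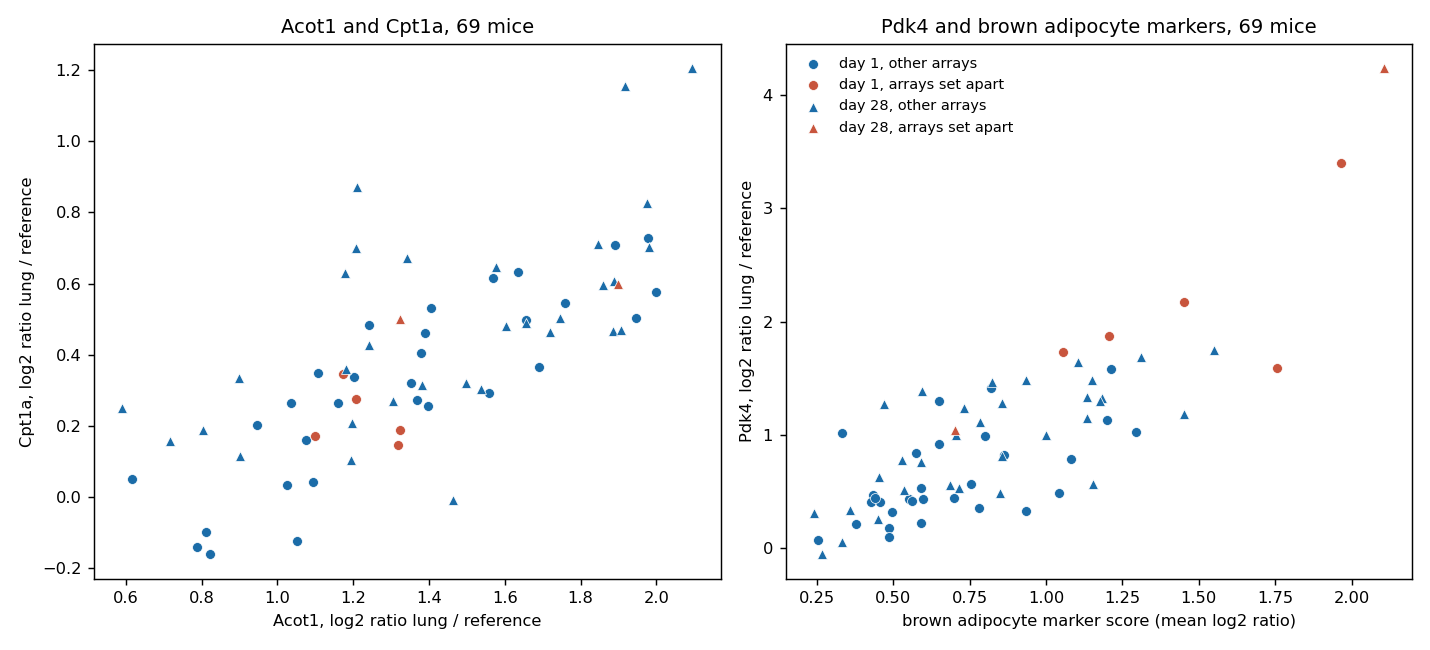
Left, log2 ratio of Acot1 (horizontal axis) against Cpt1a (vertical axis) in 69 mice. Right, log2 ratio of Pdk4 plotted with the mean log2 ratio of the brown adipocyte marker list. Circles are day 1, triangles day 28, and red marks the 7 arrays high in muscle or brown fat markers. Acot1 and Cpt1a rise together (r = 0.72), and the red points hold the highest Pdk4 values.

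Angptl4, a secreted inhibitor of lipoprotein lipase, had the vehicle group of day 1 as its lowest group. Those 5 mice had 0.30, −0.37, −0.25, 1.20 and −0.48, a mean of 0.08 ± 0.69 (SD, n = 5). All 6 particle groups of day 1 had higher means, by 0.26 to 0.88, and none was called. At 162 µg of NRCWE-002 the mice had 0.36, 1.21, 0.79, 1.23 and 1.19. They overlapped with vehicle through the vehicle mouse at 1.20, and the difference was 0.88 (95% confidence interval 0.12 to 1.63, limma adjusted p = 0.426).

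On day 28 the group means had the opposite order at that dose, with overlap. The vehicle mice had 0.25, 1.10, 1.40 and 0.80, and mice at 162 µg of NRCWE-002 had 1.10, 0.07, 0.88, −0.19 and −0.74. On the 2 slides that held both, however, the exposed mouse was above the vehicle mouse, by 0.08 and 0.85. On the 2 such slides of day 1 the exposed minus the vehicle value was −0.84 and 1.26. The effect of this dose on day 28 minus its effect on day 1 was −1.54, with an interval of −2.64 to −0.44 (limma, adjusted p = 0.588). Among the 6 genes, 0 of 24 such differences between days passed in limma and 3 had an unadjusted p below 0.05, all of them in Angptl4, while 0% of all genes passed and 4.95% had such a p. The vehicle groups themselves differed between days by 0.81 in Angptl4 (interval 0.00 to 1.61) and by 0.43 in Cpt1a (interval 0.13 to 0.73), neither of which passed (adjusted p = 0.837 for both). Without the vehicle mouse at 1.20 the Cpt1a value was 0.27. These were the 2 of 6 genes with an unadjusted p below 0.05 between vehicle groups, where 0% of all genes passed and 5.75% had such a p. With slide as a fixed block the Angptl4 value was −0.59, so its direction rests on how slides are treated. No slide held vehicle arrays of both days, so day and slide cannot be told apart directly between the vehicle groups.

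Plin2 coats lipid droplets and is abundant in cells that store fat, macrophages included. At 18 µg of NRCWE-001 on day 28 its values were −0.01, −0.25, −0.16, −0.07 and −0.09, against −0.01, 0.49, 0.22 and 0.16 in vehicle. The highest exposed and the lowest vehicle value were equal to 2 decimals but did not overlap, and the difference was −0.33 (95% confidence interval −0.62 to −0.04, limma adjusted p = 0.507). At 162 µg the mice had 0.90, −0.01, 0.12, 0.69 and 0.46 and the difference was 0.22. The F-test over the 3 doses gave an adjusted p of 0.133, and of 0.0149 with slide as a fixed block and 0.00554 with slide as a random block.

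Ucp3 values ran from −0.11 to 0.84 with a median of 0.15 over the 69 mice, and none of its contrasts with vehicle had an unadjusted p below 0.05. The largest group mean was 0.38 ± 0.14 (SD, n = 5), at 18 µg of NRCWE-001 on day 1, the only particle group in which all 5 mice were above background. Over the 3 doses on day 1, NRCWE-002 lay below NRCWE-001 by 0.17 with an SE of 0.05 (limma, adjusted p = 0.287). Only 4 of its 15 arrays and 9 of the 15 of NRCWE-001 were above background, so these values lie near the limit of detection. Without the 7 arrays high in muscle or brown fat markers the difference was −0.20 (adjusted p = 0.0498), and with slide as a fixed block −0.12 (adjusted p = 0.917).

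**Figure D3:**
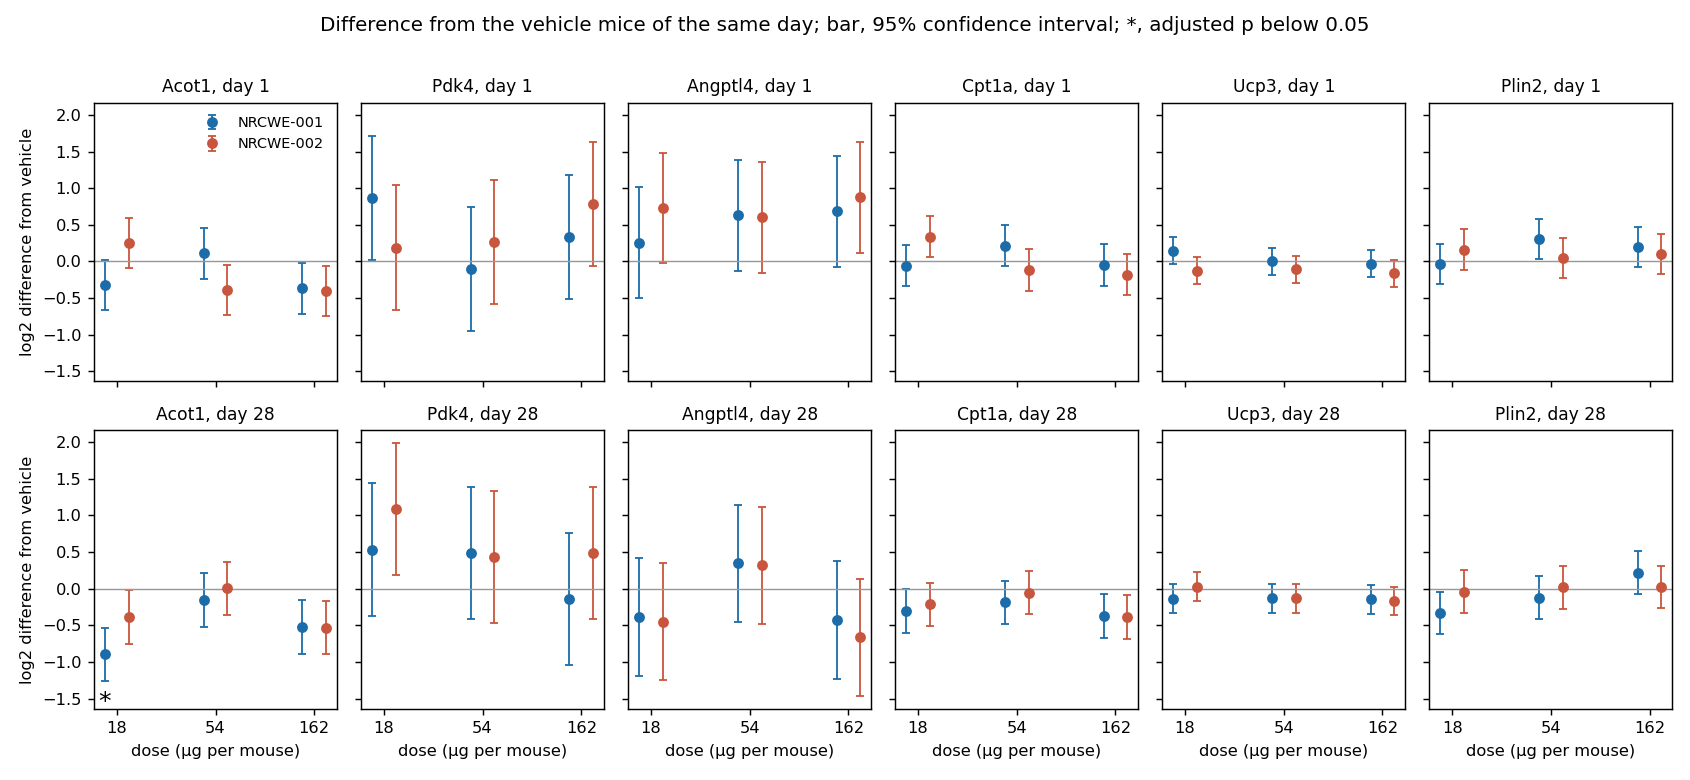
Difference from the vehicle of the same day, in log2 units with its 95% confidence interval (vertical axis), by dose in µg (horizontal axis) for both particles on day 1 and day 28. The star marks the 1 call, Acot1 at 18 µg of NRCWE-001 on day 28 (−0.90). The Angptl4 points of day 1 all lie above 0. The Cpt1a points of day 28 all lie below it, but without the vehicle mouse at 1.20 that of 54 µg of NRCWE-002 is 0.11.

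Pooling doses or comparing particles added no call. Of 24 contrasts of the mean over 3 doses with vehicle, 0 passed in limma and 3 had an unadjusted p below 0.05, while 0% to 0.0284% of all genes passed and 6.23% had such a p. Between particles at matched dose 0 of 36 passed and 7 had an unadjusted p below 0.05, while 0% to 0.13% of all genes passed and 6.52% had such a p. Averaged over doses, 0 of 12 passed and 2 had an unadjusted p below 0.05, against 14.8% of all genes. On day 28 this last contrast called 4.75% of all genes, and on day 1 it called 0.125%. Among the particle arrays of each day, most slides held a single particle, and the fit had no slide term. Particle and slide can thus largely not be told apart in contrasts between particles. The F-test of NRCWE-002 on day 28 was passed by none of the 6 genes and by 0% of all genes, with an unadjusted p below 0.05 for Acot1 and Cpt1a. Each of the 4 F-tests had such a p for 2 of the 6 genes, against 7.26% of all genes.

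Group labels accounted for 57.6% of the variance over 69 mice in Acot1, 45.0% in Cpt1a, 34.5% in Plin2, 30.6% in Ucp3, 27.2% in Angptl4 and 26.7% in Pdk4. Of the remainder, 25.4% lay between slides for Acot1 and 53.0% for Plin2, with the other genes between them. Over all genes the medians were 21.1% between groups and 61.6% of the remainder between slides. The terms themselves take 19.1% and 30.9% of the degrees of freedom, so the shares of Pdk4 and Angptl4 between groups were little above the median gene. When the 14 groups of a gene were ordered by mean, every gap between neighbours was smaller than the within-group SD, for all 6 genes. Splitting a span among 14 ordered means makes such gaps small, and the share over all genes was not computed. The gaps therefore cannot tell whether groups differ. The span from lowest to highest group was 1.31 for Pdk4, 1.15 for Angptl4, 0.90 for Acot1, 0.62 for Cpt1a, 0.55 for Plin2 and 0.31 for Ucp3.

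Of the 6 genes, 4 moved together across mice. Of 15 pairs of genes, 5 passed permutation tests of both the Pearson and the Spearman coefficient after adjustment over the 15, and these joined Acot1, Cpt1a, Angptl4 and Plin2. Acot1 and Cpt1a correlated with r = 0.72 and rho = 0.75 over 69 mice (permutation p = 1e-05 for each, the smallest that the permutations could give, adjusted p = 0.00015). The r was 0.84 on day 1, 0.61 on day 28, 0.72 without the 2 mice farthest from the median, and 0.71 after group and slide means were removed. Cpt1a and Plin2 followed with r = 0.49 and rho = 0.52 (permutation, adjusted p = 0.00035 and 0.000225), and r was 0.53 on day 1, 0.43 on day 28 and 0.41 without the 2 farthest mice. The permutations exchanged all mice and took no account of groups or slides. The share of all gene pairs that would pass was not computed, so the count of 5 has no background beside it. After group and slide means were removed, r was 0.41 for Cpt1a and Plin2, 0.55 for Acot1 and Angptl4, 0.44 for Angptl4 and Cpt1a, and 0.20 for Acot1 and Plin2.

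Acot1 and Angptl4 correlated with r = 0.46 and rho = 0.47 (permutation, adjusted p = 0.0003 for each), with an r of 0.27 on day 1, 0.68 on day 28 and 0.45 without the 2 farthest mice. Angptl4 and Cpt1a had r = 0.39 and rho = 0.38 (permutation, adjusted p = 0.0033 and 0.0045), with an r of 0.23 on day 1, 0.58 on day 28 and 0.38 without those farthest. Acot1 and Plin2 had r = 0.31 and rho = 0.44 (permutation, adjusted p = 0.0218 and 0.000675), with an r of 0.41 on day 1, 0.22 on day 28 and 0.25 without those farthest. Pdk4 joined none of these pairs. Its r with Ucp3 was 0.35 but rho was 0.04, and without the 7 arrays high in muscle or brown fat markers r was −0.15.

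**Figure D4:**
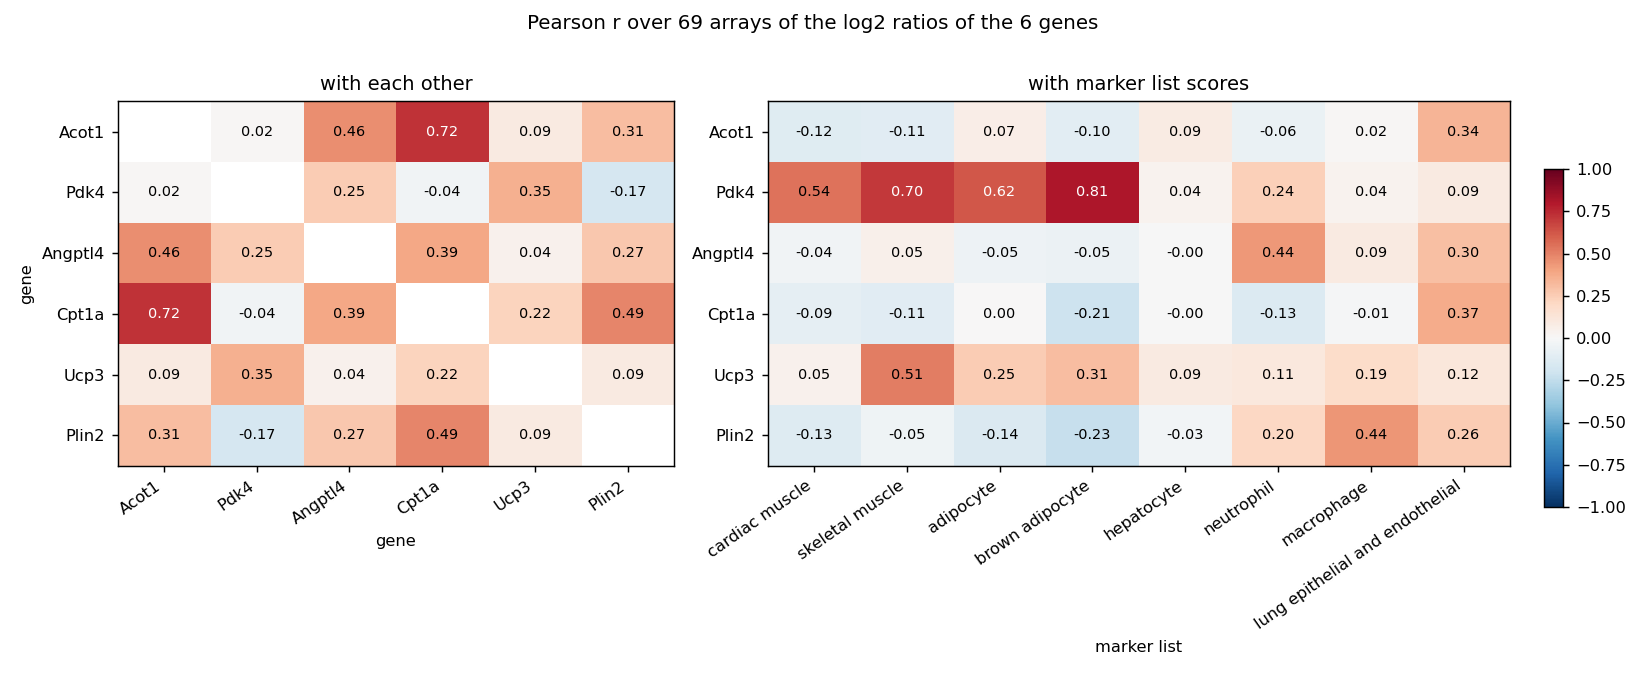
Pearson correlation over 69 mice (colour scale) among the 6 genes, and of each gene with the mean log2 ratio of each marker list. Acot1 with Cpt1a (0.72) is the strongest pair of genes, and Pdk4 with brown adipocyte markers (0.81, and 0.60 without Cox8b and Cox7a1) the strongest of a gene with a list.

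Marker lists of other cell types moved with some of the genes. Of 48 pairs of a gene with a list, 8 passed both permutation tests, with adjusted p of 0.00012 to 0.0202 for r and 0.00016 to 0.0172 for rho. The share of all genes that would pass with these lists was not computed. Pdk4 correlated with brown adipocyte markers (r = 0.81, rho = 0.76), skeletal muscle (0.70 and 0.47), adipocyte (0.62 and 0.68) and cardiac muscle markers (0.54 and 0.62). On the 62 arrays without high skeletal muscle or brown fat markers these r were 0.69, 0.31, 0.65 and 0.63. Cardiac markers did not set arrays apart, so arrays high in them remained among the 62. The brown adipocyte list of 7 genes holds Cox8b (r = 0.86 with Pdk4) and Cox7a1 (0.78), which muscle and heart also express, while r with Ucp1 was 0.07 and with Elovl3 −0.27. Without Cox8b and Cox7a1, r of Pdk4 with the list was 0.60. Angptl4 correlated with neutrophil markers (r = 0.44, rho = 0.43) and Plin2 with macrophage markers (r = 0.44, rho = 0.38). Lung epithelial and endothelial markers correlated with Acot1 (r = 0.34, rho = 0.36) and Cpt1a (r = 0.37, rho = 0.42), with r of 0.50 and 0.51 on day 28 and of 0.09 and 0.06 on day 1. After group and slide means were removed, r with the lung markers was 0.48 for Acot1 and 0.08 for Cpt1a, that of Angptl4 with neutrophil markers 0.31, that of Plin2 with macrophage markers 0.55, and those of Pdk4 0.40 to 0.76. Within days the other 6 pairs had r of 0.30 to 0.81, and without the 2 farthest mice the 8 pairs had r of 0.28 to 0.73. Hepatocyte markers passed with none of the 6 genes. Of that list Ttr, Apoa1, Apoc3, Apoa2 and Fgb were above background on 10, 12, 13, 17 and 31 arrays. Alb was on 62 and Cyp2e1 on 69, so most of the list lay near the limit of detection.

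At 18 µg of NRCWE-001 on day 28, where Acot1 was called, all 12 lung epithelial and endothelial markers had lower means than vehicle and all 14 cardiac muscle markers higher means, with 0 called in either list. The lung score was 5.36 ± 0.32 (SD, n = 5) against 5.62 ± 0.11 (SD, n = 4) in vehicle. The cardiac score ran from −0.12 to 2.70 with a median of 2.60, against −0.08 to 2.20 with a median of 0.01 in vehicle. Their part in the Acot1 difference was not tested.

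The genes most like each of the 6 over the 69 mice, by Pearson correlation, differed between them. For Acot1 they were Cdk8 (0.66), Pgap6 (0.62) and Acaa2 (0.61), the mitochondrial thiolase of fatty acid oxidation. For Cpt1a they were Eif3h (0.70), Plcg1 (0.70) and Sftpc (0.68), the surfactant protein of alveolar type II cells. After group and slide means were removed these were 0.54, 0.63 and 0.22. For Pdk4 they were Cox8b (0.86), Art1 (0.82) and Fabp3 (0.81). Cox8b, a subunit of cytochrome oxidase, is expressed in brown fat as well as in muscle and heart, and Fabp3 is the fatty acid-binding protein of heart.

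For Plin2 the most alike were Myd88 (0.78), an adaptor of innate immune receptors, Slc15a3 (0.77) and Tnfaip2 (0.77). For Angptl4 they were Klf11 (0.58), Cyb561 (0.51) and Sgms1 (0.46). For Ucp3 they were Lrtm1 (0.61), Rian (0.61) and Neb (0.60), the giant thin-filament protein of skeletal muscle, with rho of 0.34, 0.46 and 0.08.

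No other gene of the wider pathway passed where Acot1 was called. None of 13 PPAR receptors and partners passed at 18 µg of NRCWE-001 on day 28, with 7 higher and 6 lower means. Ppara, the receptor itself, differed by 0.02 with an SE of 0.13. Of 32 other PPAR alpha and fasting targets 0 passed, 9 were higher and 23 lower, and 7 had an unadjusted p below 0.05. Of all genes 0.193% were called in this comparison, 8.16% had such a p, and 46.1% had higher means. The median difference was −0.08, and −0.01 over all genes. Of 18 genes of mitochondrial fatty acid oxidation 0 passed, with 5 higher, 13 lower and a median of −0.06.

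Glucocorticoid-response genes mostly had higher means there. Of 15 tested, 13 had higher means at this dose, with a median difference of 0.23, and 2 were called, beside the 0.193% called and 46.1% higher of all genes. Tsc22d3, a glucocorticoid-induced leucine zipper protein, had 2.77, 2.73, 2.46, 2.36 and 3.01 against 1.12, 1.64, 2.41 and 1.18 in vehicle and rose by 1.08 (limma, adjusted p = 0.0213). Per1, a clock gene that glucocorticoids induce, had 1.40, 1.28, 1.72, 0.87 and 1.50 against −0.13, −0.15, 1.48 and −0.77 and rose by 1.25 (limma, adjusted p = 0.0458). Both overlapped with vehicle through the same vehicle mouse. Pdk4 and Angptl4 were not called there, with the Pdk4 mice at 1.00, 1.27, 1.49, 1.30 and 0.78 overlapping with vehicle.

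Over the 4 F-tests, no PPAR receptor or partner and no gene of mitochondrial fatty acid oxidation passed. Of the other targets, Fabp1, a fatty acid-binding protein, passed for NRCWE-001 on day 1 (adjusted p = 0.0212), where it fell from 4.47 ± 0.50 in vehicle to 2.73 ± 1.12 at 162 µg (SD, n = 5 each). Averaged over doses on day 28, 2 of the 13 receptors and partners were higher after NRCWE-002 than after NRCWE-001, led by Creb3l3 at 1.16, a hepatic fasting regulator that acts with PPAR alpha. The same contrast called 2 of 32 other targets and 2 of 18 oxidation genes, all higher, and 3 of 15 glucocorticoid-response genes, all lower. These shares stand beside 4.75% of all genes. Particle and slide largely coincide in this contrast.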

How the data were processed

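Lung RNA of 69 mice had been hybridised to 2-colour Agilent arrays. The authors deposited scanner output of Agilent Feature Extraction 11.0.1.1, with an intensity per spot in each channel, and a table of log2 ratios that they had normalized by LOWESS. No depth applies to arrays, and the number of mice limits precision.

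Intensities were corrected with normexp (offset 50; the curve was fitted without spots more than 10 median absolute deviations off in local background) and loess in limma 3.58.1 under R 4.3.3. Probes well above background in lung RNA on at least 4 arrays were kept, which left 36452 of 41174 probes. Symbols came from RefSeq transcript identifiers (27479 probes matched), and probes of 1 gene were summarised by their median. The deposited log2 ratios, which correlated at 0.987 to 0.995 with these values per array, served as an alternative.

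The fit held 14 group means. Contrasts were each dose, the mean of doses, particles, days and an F-test over doses, adjusted by Benjamini-Hochberg over 17628 genes and called below 0.05. Correlations had 100000 permutations, tested on both sides, computed with scipy 1.17.1. The limma tests were checked on simulated arrays with independent noise and no slide effect. The real arrays differ between slides, so that check cannot tell how the p-values behave under slide effects. Each mouse was a separate animal.

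The 6 genes and all lists were chosen with earlier results of these data known. Lists were PPAR receptors and partners, other PPAR alpha and fasting targets, mitochondrial fatty acid oxidation, glucocorticoid-response genes, and markers of cardiac and skeletal muscle, adipocytes, brown adipocytes, hepatocytes, neutrophils, macrophages and lung. By rule the 6 genes were always named, with up to 4 called genes of each list per comparison and the 3 genes most correlated with each of the 6. Ppara and Acot2 were named outside the rule. Alternatives changed background correction, normalization, probe filter, probe summary, slide or scan day as a block, arrays in the fit and the test, and left out each array in turn. Leaving out the 7 arrays high in muscle or brown fat markers was added after seeing the data.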

Additional observations from a re-analysis of the deposited data

Results flagged for a closer look

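In 10 of 84 groups of a gene (11.9%), 1 mouse lay far from the others of its group by the test of Dixon, which chance does in about 5% of groups. For Pdk4 it was replicate 1 at 18 µg of NRCWE-002 on day 28, at 4.23, and the same array held the Ucp3 value of 0.84. That array was among the 7 high in muscle or brown fat markers.

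For Acot1 the mice were replicate 3 at 18 µg of NRCWE-001 on day 1, at 0.79, and replicate 3 at 54 µg of NRCWE-002 on day 28, at 1.60. Replicate 2 of that last group stood apart for Cpt1a, at 1.15, and for Plin2, at 0.58. Plin2 also had replicate 2 at 162 µg of NRCWE-002 on day 28, at 1.03. Angptl4 had replicate 5 at 54 µg of NRCWE-001 on day 1, at −0.40. Ucp3 had replicate 1 at 162 µg of NRCWE-002 on day 28, at 0.34, and replicate 1 at 18 µg of NRCWE-002 on day 1, at 0.23. None of these mice was in the vehicle groups or in the group in which Acot1 was called.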

How the results depend on the processing

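The Acot1 difference at 18 µg of NRCWE-001 on day 28 was negative under every alternative run, and it was −0.76 (adjusted p = 0.412) under median centring and −0.90 (adjusted p = 0.0778) with arrays of the day alone. Under these 2 settings 0 doses were called over the 6 genes, and the adjusted p of the F-test was 0.329 and 0.0935. Leaving out each array in turn gave −1.01 to −0.81, 0 to 1 called doses, 1 to 2 called F-tests, and an adjusted p of 0.00156 to 0.0474 for the F-test. Of the 24 F-tests, 0 passed under median centring, 2 with arrays of the day alone and 2 with probes above background on all arrays (Ucp3 was then not tested). With slide as a fixed block, slide as a random block or scan day as a fixed block 4 passed, the same 4 each time: Acot1 and Plin2 for NRCWE-001 on day 28, and Acot1 and Cpt1a for NRCWE-002 on day 1. The shares of all genes given above come from the fit without a block, so they are no background for these counts. Without the 7 arrays high in muscle or brown fat markers 1 contrast between particles passed (Ucp3). In all, 3 values changed sign: under median centring the particle differences on day 28 of Plin2 at 18 µg (−0.11) and of Acot1 over doses (−0.11), and with slide as a fixed block the Angptl4 difference between vehicle groups (−0.59). The deposited log2 ratios gave Acot1 −0.92 (adjusted p = 0.0114). The causes were not tested. No paired analysis was possible because the sample numbers in the labels run on across groups and pair no mice. Slide entered as a block instead, with all 18 slides, of which only some held a vehicle array.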

Other observations

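Outside the PPAR alpha targets, Lcn2, an acute-phase lipocalin that neutrophils carry and that stands in the glucocorticoid-response list, was called at 3 doses on day 1. It rose by 2.75 at 162 µg of NRCWE-001, and by 3.03 at 54 µg and 3.02 at 162 µg of NRCWE-002 (limma). None of the 6 genes was called in those 3 comparisons, in which 0.579%, 0.0624% and 0.596% of all genes were. Of 8 neutrophil markers, Cxcr2 and Csf3r passed the F-test for NRCWE-001 on day 1, as did 0.698% of all genes. For NRCWE-002, whose F-test 0.823% of all genes passed, Ear1 and Cd14 of 8 macrophage markers passed it, as did Dio2, a deiodinase, of 7 genes in the brown adipocyte list. On day 28, Klf9, a glucocorticoid-induced factor, passed with Acot1 and Tsc22d3 for NRCWE-001.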
